A study of Mus musculus with 63 samples.

Results

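Native Eµ-myc lymphomas were split into a class with high and a class with low Cdkn2a. The 11 high and 21 low arrays were compared across all measured genes. Cdkn2a is 1 locus with 2 products, ARF, which activates p53, and INK4A, which inhibits kinases. The members of each class were chosen by the measured Cdkn2a value itself. An array is high where its deposited log2 value lies above 9.26, the middle of the widest gap between neighbouring values of all 63 arrays. The 32 native arrays are those whose treatment label reads native, out of 63 arrays in the series, of which 31 were labelled CTX 4h (4 h after cyclophosphamide). All groups are lymph node lymphoma cells of Emu-myc transgenic mice with a C57BL/6 background, so the high and the low class share the transgene, the strain background and the treatment label native. The immunoglobulin heavy-chain enhancer drives the Myc transgene in B-lineage cells. No mouse age is given in the labels used here.

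The labels limit these groups in several ways. The 15 native arrays made from 100 ng RNA carry a protocol text about transplanted recipients, and the 17 made from 300 ng carry none, so the host of the tumour cells is not settled. The cells were used without purification for the 100 ng arrays and without culture for all of them. Whether different arrays stem from different mice is not stated. The p-values below therefore reflect only how much these samples vary, which may be technical. These are bulk samples, in which fewer cells of a type and less RNA per cell cannot be told apart.

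ARF binds and holds the ubiquitin ligase MDM2, which otherwise drives the degradation of p53, and in this way links the MYC oncogene to p53. INK4A blocks the kinases CDK4 and CDK6 and keeps the retinoblastoma protein active, which restrains E2F transcription factors. In Eµ-myc mice, loss of ARF or of p53 is a known step in lymphoma development. Tumours with a lost p53 function are known to keep or raise the level of the ARF transcript, since p53 lowers it.

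The array holds 1 probe set with the single symbol Cdkn2a, so ARF and INK4A transcripts were not told apart. The sequences around both RefSeq starts of the locus are shown because they hold the annotated starts of the classifying gene. They are followed by the start of Zbtb8a, the only gene whose level passed the test below. All are from RefSeq (build GRCm38.p6), span 250 bases before to 50 bases after an annotated start, lie on the minus strand of chromosome 4 and are printed 5′ to 3′. The capitals mark the E2F site form TTTCCCGC. The first is chr4:89294570-89294869, the second chr4:89282143-89282442 and the third chr4:129377979-129378278.
Cdkn2a upstream start: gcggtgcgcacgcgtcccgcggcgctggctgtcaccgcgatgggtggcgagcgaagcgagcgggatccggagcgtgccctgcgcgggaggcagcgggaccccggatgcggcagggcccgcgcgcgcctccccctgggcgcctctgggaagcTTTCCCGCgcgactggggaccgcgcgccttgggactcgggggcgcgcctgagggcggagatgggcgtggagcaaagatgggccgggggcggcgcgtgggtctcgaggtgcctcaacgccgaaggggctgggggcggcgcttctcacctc
Cdkn2a downstream start: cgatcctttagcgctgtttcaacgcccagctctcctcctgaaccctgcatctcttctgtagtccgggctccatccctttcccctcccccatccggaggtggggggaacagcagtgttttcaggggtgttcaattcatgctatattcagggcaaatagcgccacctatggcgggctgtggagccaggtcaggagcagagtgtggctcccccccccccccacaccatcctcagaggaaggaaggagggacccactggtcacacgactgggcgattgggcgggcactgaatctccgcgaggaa
Zbtb8a start: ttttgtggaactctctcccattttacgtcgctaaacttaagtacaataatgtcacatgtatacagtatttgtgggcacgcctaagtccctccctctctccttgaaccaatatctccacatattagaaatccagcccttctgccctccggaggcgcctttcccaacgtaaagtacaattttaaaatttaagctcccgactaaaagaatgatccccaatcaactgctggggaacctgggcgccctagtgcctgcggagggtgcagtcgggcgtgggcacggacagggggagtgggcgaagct

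Both strands were searched for the E2F forms TTTCCCGC and TTTGGCGC, for the E-box CACGTG bound by MYC, and for the p53 half-site. The upstream Cdkn2a start held TTTCCCGC once, which 1.07% of 32851 RefSeq promoter windows hold on either strand. TTTGGCGC is in 0.51% of the windows, CACGTG in 7.15% and a p53 half-site in 8.36%, and none of these 3 was found in the windows printed here. The downstream Cdkn2a start and the Zbtb8a start held none of the 4 motifs. These letters describe the windows and say nothing of binding.

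Cdkn2a lay between 9.46 and 10.44 in the 11 high arrays, with a median of 9.80, and between 6.54 and 9.07 in the 21 low arrays, with a median of 7.53. These values chose the classes and are not a result. The member just inside the limit was lymphoma 1112 at 9.46, and the array just outside was lymphoma 1118 at 9.07. Lymphoma 1118 stood apart from the other low arrays, of which the next was lymphoma 9193 at 8.48. Among the native arrays alone this gap, from 8.48 to 9.07, is the widest. The gap at the limit, from 9.07 to 9.46, is narrower there, so the native values alone would place lymphoma 1118 with the high arrays. The low class was spread over more than the high class, with lymphomas 8740, 1114 and 1113 at its lower end between 6.54 and 6.64.

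**Figure D1:**
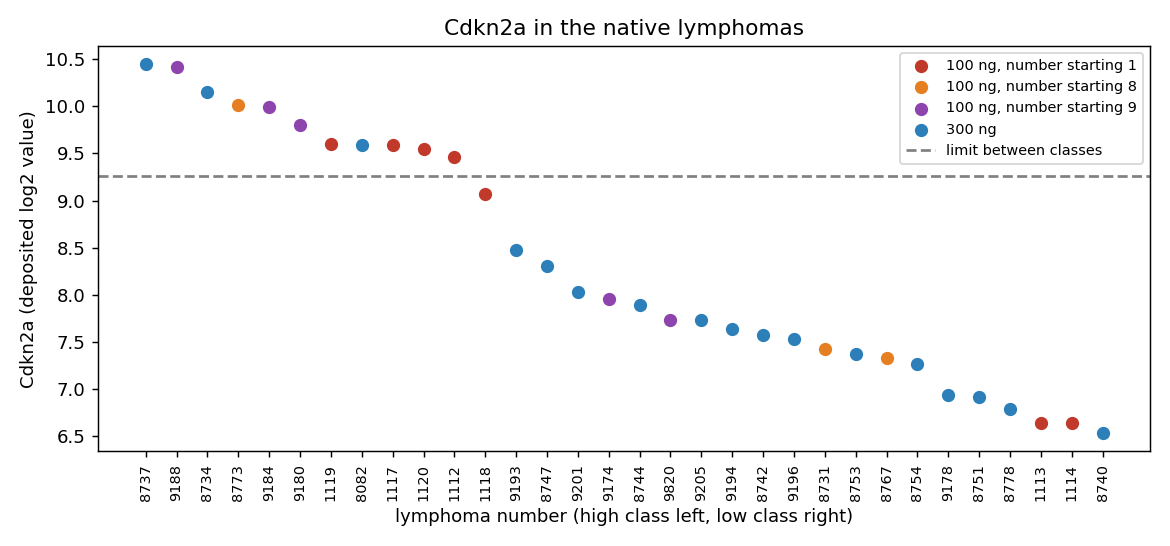
Deposited log2 value of Cdkn2a (vertical axis) in each of the 32 native arrays, ordered by value with the high class left of the low class. Each point is 1 array, the colour gives the RNA input and, at 100 ng, the number series, and the dashed line is the limit at 9.26. Lymphoma 1118, at 9.07, is the low array nearest to the limit.

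RNA input moved with the class without passing a test. At 100 ng 8 arrays were high and 7 low, and at 300 ng 3 were high and 14 low (Fisher's exact test, two-sided p = 0.0617). Counting lymphoma 1118 as high gave p = 0.0269 in the same exact test. RNA input was a preset term of the model, whatever this test gave. Among the 100 ng arrays the lymphoma number starts with 1 in 4 high and 3 low arrays, with 8 in 1 high and 2 low arrays, and with 9 in 3 high and 2 low arrays.

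A pair of low arrays stood apart from all other native arrays. Myc was 10.64 in lymphoma 8740 and 11.39 in lymphoma 9820, against 12.87 or more in the other 30 native arrays, and their mean correlation with the other native arrays was 0.912 and 0.904, against 0.960 to 0.974. Both belong to the low class, so values that move by over 1.5 times without them are given both ways. The median level of an array over its genes ran from 6.53 to 7.11 in the series.

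The level of Zbtb8a was lower in high-Cdkn2a lymphomas, and this was the only gene of 19937 to pass the test. Zbtb8a encodes a protein with a BTB domain and zinc fingers, a build shared by many transcription factors. In the high class it was 7.0 in lymphoma 8773, 7.11 in 9180, 7.14 in 8737, 7.18 in 1119, 7.27 in 9184, 7.29 in 1112, 7.39 in 1117, 7.43 in 8082, 7.44 in 9188, 7.65 in 1120 and 7.66 in 8734. In the low class it had a lowest value of 7.53 in lymphoma 9820, a median of 8.10 and a highest value of 8.61 in lymphoma 1113. All 11 high arrays lay below the low median, 9 of them lay below every low array, and 19 of 21 low arrays lay above every high array. The means were 7.32 ± 0.21 (SD, n = 11) in the high and 8.11 ± 0.29 (SD, n = 21) in the low class. The log2 fold change, high minus low with RNA input held, was -0.80 ± 0.11 (SE, limma, Benjamini-Hochberg adjusted p = 6.07e-04).

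Zbtb8a was lower in the high arrays of each array set. These sets are parts of the arrays on which it was called, so this is a description and no further test. The difference of means was -0.95 among the 100 ng arrays with numbers starting with 1 (4 against 3), -1.28 for those starting with 8 (1 against 2), -0.58 for those starting with 9 (3 against 2) and -0.66 among the 300 ng arrays (3 against 14). The classes did not overlap in the 100 ng sets, and at 300 ng the highest high array, at 7.66, lay just above the lowest low array, at 7.64. The call was lost in the 100 ng arrays alone (adjusted p = 0.2, limma), in the 300 ng arrays alone (adjusted p = 1, limma) and without the numbers starting with 1 (adjusted p = 0.0784, limma), where the fold changes were -0.89, -0.66 and -0.75. Without lymphomas 8740 and 9820 the fold change was -0.85 (adjusted p = 6.84e-05, limma).

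Zbtb8a lies on chromosome 4, as Cdkn2a does, with many genes between them. The 10 nearest measured genes of Zbtb8a in RefSeq order, among them Zbtb8os, Zbtb8b and Hdac1, had fold changes from -0.34 to 0.25, and none passed the test. Zbtb8os had 0.03, Zbtb8b 0.03 and Hdac1 0.11 without lymphomas 8740 and 9820, against 0.11, -0.07 and 0.25 with all arrays. On each side of Cdkn2a the nearest measured genes were Mtap, which encodes an enzyme of methionine salvage, and Cdkn2b, which encodes the kinase inhibitor INK4B. Mtap was 9.34 ± 0.65 (SD, n = 11) in the high and 8.98 ± 0.69 (SD, n = 21) in the low class, with a fold change of 0.18 ± 0.25 (SE, limma adjusted p = 0.796) that was -0.02 without lymphomas 8740 and 9820. Cdkn2b was 6.93 ± 0.17 (SD, n = 11) in the high and 6.77 ± 0.23 (SD, n = 21) in the low class, with a fold change of 0.14 ± 0.09 (SE, limma adjusted p = 0.684). The other 8 of the 10 nearest genes of Cdkn2a had fold changes from -0.15 to 0.02, and from -0.09 to 0.07 without lymphomas 8740 and 9820.

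Across all genes, limma called 0 higher (0% of those tested) and 1 lower (0.00502%) at an adjusted p under 0.05. At an unadjusted p under 0.05, 1071 genes were higher (5.37%) and 591 lower (2.96%). Without lymphomas 8740 and 9820 the calls were 4 higher, namely Fam53a, Tmem165, Tmem116 and Manba, and 3 lower, namely Zbtb8a, Arhgap12 and Erbin. The counts at an unadjusted p under 0.05 were then 814 and 586. Without lymphoma 1118, the low array nearest to the limit, limma called 9 higher and 2 lower. With lymphoma 1118 counted as high, limma called 14 higher and 1 lower.

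The 10 genes next in p after Zbtb8a shared an adjusted p of 0.0901 and did not pass. They are named here after their values were seen, and their fold changes had the same sign in all 4 array sets. Choice by small p over the same arrays favours such agreement, so it adds no support. All 40 genes with the smallest p had the same sign at 100 and at 300 ng. Sapcd1 had a median of 9.03 and a range from 8.02 to 9.68 in the high class, against a median of 7.98 and a range from 7.13 to 9.0 in the low class. All 11 high arrays lay above the low median, and all 21 low arrays lay below the high median. The fold change of Sapcd1 was 0.94 ± 0.19 (SE).

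Fam53a had a range from 8.43 to 8.87 with a median of 8.75 in the high class, against 7.35 to 8.60 with a median of 8.28 in the low class, and 9 of 11 high arrays lay above every low array. Its fold change was 0.51 ± 0.11 (SE), and 0.42 without lymphomas 8740 and 9820 (limma adjusted p = 0.00616). Tmem165, which encodes a Golgi membrane protein needed for glycosylation, had 10.37 to 10.68 with a median of 10.53 in the high class, a narrow band, against 8.84 to 10.91 with a median of 10.05 in the low class. Of the 21 low arrays 20 lay below every high array, while lymphoma 8747 lay above them all. For Tmem165 the fold change was 0.59 ± 0.12 (SE), and 0.46 without lymphomas 8740 and 9820 (limma adjusted p = 0.00635).

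Nat8l encodes an enzyme that makes N-acetylaspartate. It had 6.56 to 8.87 with a median of 7.49 in the high class, against 5.92 to 7.03 with a median of 6.45 in the low class, a fold change of 0.99 ± 0.20 (SE). Spinkl had the largest positive fold change of the set, 1.68 ± 0.35 (SE), with 5.81 to 8.53 in the high class, against 3.65 to 7.55 in the low class. Of Manba, which encodes the lysosomal beta-mannosidase, Tmem116 and Ppm1l, which encodes a protein phosphatase, the fold changes were 0.57, 0.44 and 0.57. Tmem116 was above the low median in 11 of 11 high arrays, and Ppm1l in 10 of 11.

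The lower genes of the set were Arhgap12 and Dglucy. Arhgap12 had 6.78 to 7.69 with a median of 7.05 in the high class, against 7.39 to 7.92 with a median of 7.67 in the low class. Of the 11 high arrays 8 lay below every low array. Arhgap12 thus had a fold change of -0.46 ± 0.09 (SE), and -0.48 without lymphomas 8740 and 9820 (limma adjusted p = 0.0378).

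**Figure D2:**
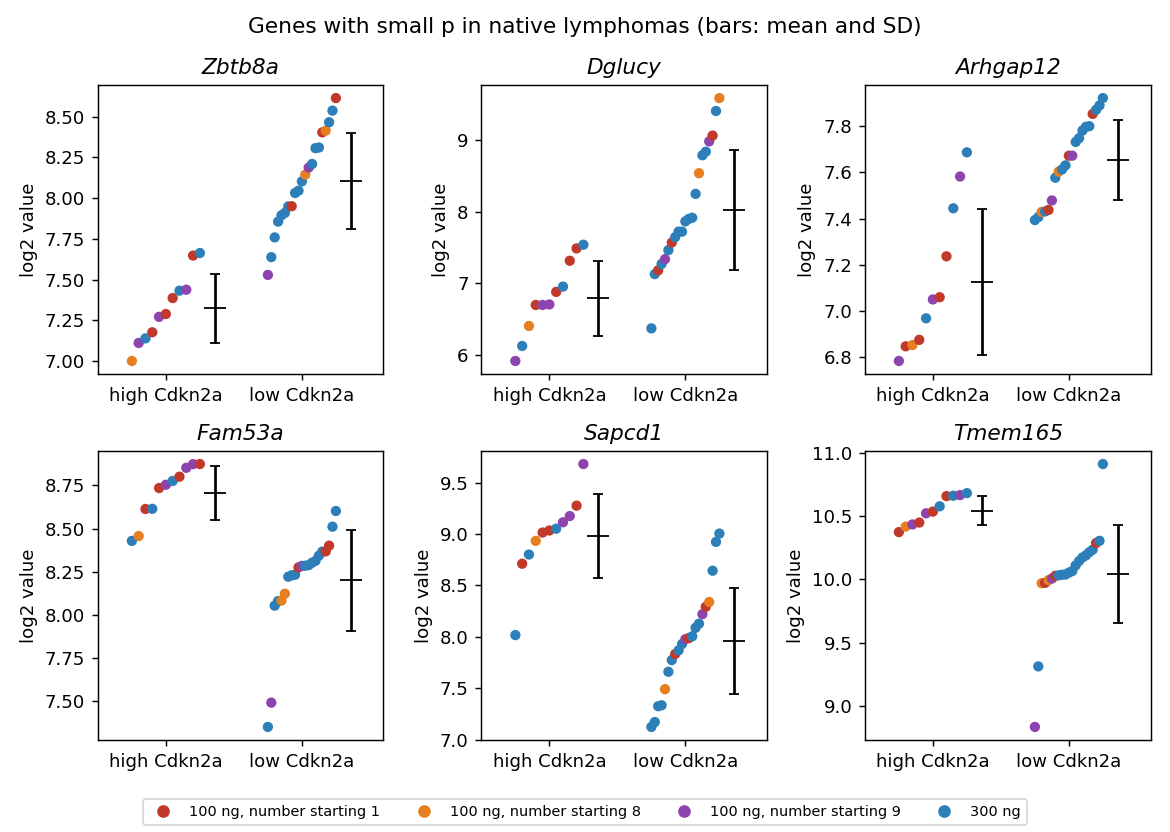
Deposited log2 values (vertical axes) of Zbtb8a and 5 of the next genes in p, in the 11 high and the 21 low native arrays, each class ordered by value. Points are arrays coloured by RNA input and first digit of the lymphoma number, and the black marks are mean and SD. Zbtb8a, Dglucy and Arhgap12 are lower in the high class, and Fam53a, Sapcd1 and Tmem165 higher, with some overlap in each.

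Dglucy, a p53 target in the list used here and the gene of the enzyme D-glutamate cyclase, had the largest negative fold change of the set. It was 5.91 in lymphoma 9188, 6.12 in 8737, 6.4 in 8773, 6.70 in 1120, 6.70 in 9184, 6.70 in 9180, 6.88 in 1119, 6.95 in 8734, 7.32 in 1117, 7.49 in 1112 and 7.54 in 8082, all high. In the low class it ran from 6.37 in lymphoma 9194 to 9.59 in lymphoma 8731, with a median of 7.87. All 11 high arrays lay below the low median, and 20 of 21 low arrays lay above the high median. The means were 6.79 ± 0.52 (SD, n = 11) in the high and 8.03 ± 0.84 (SD, n = 21) in the low class, and the fold change was -1.34 ± 0.29 (SE, limma adjusted p = 0.0901).

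In none of the 33 gene lists examined did a member pass the test. With all arrays, the split of p53 target genes below and above 0 was near that of all genes, without a call. Of 39 listed genes 36 were measured, and limma called none higher and none lower. At an unadjusted p under 0.05, 3 were higher and 4 lower, shares of the list to be read against 5.37% and 2.96% of all genes. The median fold change was -0.04, against -0.02 over all genes, with 14 members above 0 and 22 below, against 45% of all genes above 0. With lymphomas 8740 and 9820 left out, 2 members were higher and 6 lower at an unadjusted p under 0.05, against 4.08% and 2.94% of all genes, and the median was -0.09, against 0.0047 over all genes. The median was -0.11 at 100 ng, -0.00017 at 300 ng and -0.10 in the CTX 4h arrays. The list score, the mean of the members after centring each gene, ran from -0.36 to 0.19 in the high class, against -0.38 to 0.33 in the low class, so the classes overlapped over almost their whole range.

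The 4 with a smaller value were Dglucy, Eda2r, Phlda3 and Polk. Eda2r, the gene of a receptor of the TNF receptor family, had a fold change of -0.23 ± 0.08 (SE, limma adjusted p = 0.507). Phlda3, an inhibitor of AKT at the membrane, had 7.24 ± 0.42 (SD, n = 11) in the high and 7.61 ± 0.40 (SD, n = 21) in the low class, a fold change of -0.40 ± 0.16 (SE, limma adjusted p = 0.538). Its value was -0.61 at 100 ng and -0.07 at 300 ng. Polk, a translesion DNA polymerase, had -0.26 ± 0.12 (SE, limma adjusted p = 0.567), with -0.42 at 100 ng and -0.02 at 300 ng.

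The 3 with a larger value were Plk2, Trp53inp1 and Rrm2b, named after their values were seen. Plk2, a polo-like kinase, had 0.59 ± 0.26 (SE, limma adjusted p = 0.567). Trp53inp1, a stress-induced partner of p53, had 0.44 ± 0.20 (SE, limma adjusted p = 0.576), and Rrm2b, the p53-induced ribonucleotide reductase subunit, had 0.38 ± 0.18 (SE, limma adjusted p = 0.59). Trp53 and Cdkn1a were not analysed here.

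**Figure D3:**
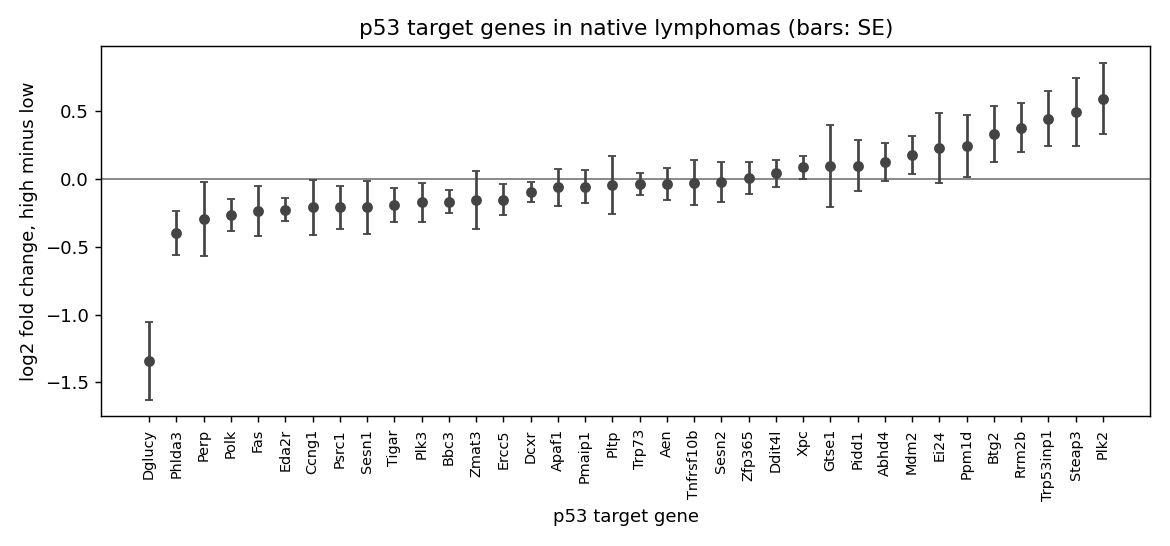
Log2 fold change, high minus low Cdkn2a, with its SE (vertical axis) for the 36 measured p53 target genes in native lymphomas, ordered by value. Dglucy lies apart at -1.34, and the other members run from -0.40 to 0.59.

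Genes that act on p53 upstream also gave no call. Of 11 measured p53 regulators 0 passed, with 1 lower at an unadjusted p under 0.05, against 2.96% of all genes. Without lymphomas 8740 and 9820, 2 were lower, against 2.94%. The 1 with all arrays was Hipk2, a kinase that phosphorylates p53, at -0.40 ± 0.19 (SE, limma adjusted p = 0.587). Mdm2, which is both a p53 target and the ligase that ARF binds, had 9.39 ± 0.28 (SD, n = 11) in the high and 9.17 ± 0.39 (SD, n = 21) in the low class. Its fold change was 0.18 ± 0.14 (SE, limma adjusted p = 0.706), and 0.03 without lymphomas 8740 and 9820. Of 8 measured ARF binding partners 0 passed. Npm1, the nucleolar protein nucleophosmin that holds ARF, had 0.33 ± 0.18 (SE, limma adjusted p = 0.622), and 0.14 without the pair.

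Regulators of the Cdkn2a locus were mixed. Of 23 measured, limma called 0, with 4 higher and 0 lower at an unadjusted p under 0.05, against 5.37% and 2.96% of all genes. The counts were 1 and 1 without lymphomas 8740 and 9820. Kdm6b, a demethylase that removes the Polycomb mark H3K27me3, had 0.41 ± 0.14 (SE, limma adjusted p = 0.489), with 0.57 at 100 ng and 0.17 at 300 ng. Dmtf1, an activator of the ARF promoter, had 0.24 ± 0.10 (SE, limma adjusted p = 0.547). E2f2, an E2F transcription factor, had 10.46 ± 0.61 (SD, n = 11) in the high and 9.74 ± 0.78 (SD, n = 21) in the low class, a fold change of 0.65 ± 0.28 (SE, limma adjusted p = 0.561) that was 0.40 without lymphomas 8740 and 9820. Phc2, a Polycomb subunit, had 0.23 ± 0.10 (SE, limma adjusted p = 0.579). Bmi1, the Polycomb repressor best known for holding down this locus, had -0.26 ± 0.20 (SE, limma adjusted p = 0.694), with a median of 8.79 in the high and 8.83 in the low class. Without that pair of arrays Kdm6b had 0.34 and Phc2 0.16.

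The target side of INK4A, the step from CDK4 and CDK6 to E2F, showed no called gene. Of 6 measured CDK inhibitors 0 passed. At an unadjusted p under 0.05, 0 were higher and 0 lower, against 5.37% and 2.96% of all genes. Without lymphomas 8740 and 9820, 1 was lower, against 2.94%. Cdkn2c, which encodes INK4C, had -0.33 ± 0.24 (SE, limma adjusted p = 0.694), and -0.54 without lymphomas 8740 and 9820. Of 20 G1 cyclins, CDKs and pocket proteins 0 passed, and E2f1 had 0.19 ± 0.24 (SE, limma adjusted p = 0.787), which was -0.04 without lymphomas 8740 and 9820. Of 28 DNA replication genes 0 passed, and 26 had a fold change above 0 with a median of 0.20. Of all genes tested 45% were above 0. Of the brighter genes, those whose mean over all arrays is above that of the median gene, 67.4% were above 0, with a median of 0.10. Without the pair of lymphomas 8740 and 9820, 53.1% of the brighter genes were above 0. Pole, the leading-strand DNA polymerase, had the smallest p, with 0.59 ± 0.27 (SE, limma adjusted p = 0.581), and 0.32 without the pair. The median of these genes was -0.02 without the pair. Of 24 G2 and mitosis genes 0 passed and 24 were above 0, with a median of 0.29 that was 0.02 without the pair. Bub1b, a spindle checkpoint kinase, had 0.53 ± 0.30 (SE, limma adjusted p = 0.643), and Nek2, a centrosome kinase, 0.41 ± 0.22 (SE, limma adjusted p = 0.627). Without the pair Bub1b had 0.21 and Nek2 0.21.

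MYC and its targets gave no call. Myc had a range from 13.11 to 13.75 and a median of 13.51 in the high class, against 10.64 to 13.63 and a median of 13.17 in the low class. Its fold change was 0.47 ± 0.23 (SE, limma adjusted p = 0.598), and 0.24 without lymphomas 8740 and 9820. Of 12 MYC network genes 0 passed, with 3 higher at an unadjusted p under 0.05 (2 without the pair), against 5.37% of all genes (4.08% without the pair). Besides Myc these were Mxd4, a MAX partner that opposes MYC, at 0.57 ± 0.16 (SE, limma adjusted p = 0.345), and Mnt, another such partner, at 0.13 ± 0.06 (SE, limma adjusted p = 0.59). Of 25 MYC target and ribosome biogenesis genes 0 passed and 25 were above 0, with a median of 0.33 that was 0.13 without the pair. Of all brighter genes 67.4% were above 0, and 53.1% without the pair. Cad, the enzyme that starts pyrimidine synthesis, had 0.54 ± 0.23 (SE, limma adjusted p = 0.561), and Pes1, a ribosome assembly factor, 0.45 ± 0.20 (SE, limma adjusted p = 0.561). Without the pair Cad had 0.31 and Pes1 0.26. The list score ran from -0.22 to 0.67 in the high class, against -1.79 to 0.53 in the low class. The lower end of the low class in these lists thus moved with the pair of low-Myc arrays, whose part in the smaller p-values was not tested beyond leaving them out.

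DNA repair and cell death genes gave no call either. Of 25 measured DNA damage checkpoint and repair genes 0 passed, with 3 higher and 0 lower at an unadjusted p under 0.05, against 5.37% and 2.96% of all genes. When lymphomas 8740 and 9820 were left out the counts were 1 and 1, and the list median was 0.02, against 0.20 with all arrays. Msh6, a mismatch repair protein, had 0.52 ± 0.18 (SE, limma adjusted p = 0.489). Lig4, the ligase of end joining, had 9.61 in the high and 8.84 in the low class on average, a fold change of 0.68 ± 0.27 (SE, limma adjusted p = 0.529), and lay above the low median in 10 of 11 high arrays. Xrcc1, a scaffold of single-strand break repair, had 0.36 ± 0.16 (SE, limma adjusted p = 0.573). Without the pair Msh6 had 0.34 and Xrcc1 0.23. Of 21 BCL2 family and caspase genes 0 passed. Diablo, which relieves the block on caspases, had 0.42 ± 0.15 (SE, limma adjusted p = 0.479), and Bcl2l2, a survival protein, had -0.25 ± 0.09 (SE, limma adjusted p = 0.49). In 20 immediate early genes 0 passed, and Ier2 had -0.34 ± 0.09 (SE, limma adjusted p = 0.298), with -0.35 at 100 ng and -0.33 at 300 ng. Pkm, the pyruvate kinase of glycolysis, had 11.94 in the high and 11.49 in the low class on average and a fold change of 0.48 ± 0.15 (SE, limma adjusted p = 0.409). None of 13 measured glycolysis genes passed.

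The samples held B-lineage cells in both classes. Pax5, the B-lineage transcription factor, had 10.46 to 11.68 with a median of 11.27 in the high class, against 9.49 to 11.64 with a median of 11.01 in the low class. Of 11 pan-B-cell markers 0 passed and 10 were above 0, against 45% of all genes and 67.4% of the brighter genes. Their median was 0.24, and 0.09 without the pair of low-Myc arrays. The list score ran from -0.43 to 0.53 in the high and from -1.62 to 0.55 in the low class. Maturation varied widely within both classes. Igll1, a surrogate light chain gene of precursor B cells, ran from 6.47 to 11.56 in the high and from 4.80 to 13.41 in the low class. Ighm, the heavy chain of the B-cell receptor, ran from 7.71 to 10.81 in the high and from 5.57 to 13.84 in the low class. Their fold changes were -0.22 ± 0.79 and -0.38 ± 0.63 (SE, limma adjusted p = 0.925 and 0.831), so the SE exceeded the difference for each. Of 14 precursor and 12 mature B-cell markers 0 passed. Kit, a receptor of early progenitors, had -0.34 ± 0.18 (SE, limma adjusted p = 0.62), and Vpreb3 had 0.91 ± 0.54 (SE, limma adjusted p = 0.659).

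No marker of another cell type passed the test, and for some lists the fold changes at 100 and at 300 ng are far apart. The counts above and below 0 in these lists are to be read against 45% of all genes above 0. Of 16 T-cell and NK-cell markers 0 passed and 14 were below 0, with a median of -0.24, which was -0.56 at 100 ng and 0.17 at 300 ng. Cd4 had -0.67 ± 0.31 (SE, limma adjusted p = 0.579). Their list score ran from -0.83 to 0.77 in the high and from -0.99 to 1.51 in the low class. Of 12 neutrophil markers 0 passed and 12 were above 0, with a median of 0.45, which was 0.06 at 100 ng and 0.96 at 300 ng. Their score ran from -0.90 to 3.0 in the high and from -1.38 to 0.76 in the low class, with medians of -0.04 and -0.01. Lymphomas 8737 at 3.0 and 9188 at 2.09, both high, lay above all other native arrays. Retnlg, a neutrophil gene, had 0.78 ± 0.41 (SE, limma adjusted p = 0.621), and 0.29 without lymphoma 8737. Of 15 macrophage markers 0 passed, with a median of -0.07 and scores from -0.33 to 0.42 in the high and from -0.42 to 0.51 in the low class. Lyz2 had -0.29 ± 0.18 (SE, limma adjusted p = 0.668). Of 14 stromal and endothelial markers 0 passed, with 1 lower at an unadjusted p under 0.05, against 2.96% of all genes. That was Pdgfra, at -0.38 ± 0.15 (SE, limma adjusted p = 0.529). Of 10 salivary gland genes 0 passed and 8 were below 0, with a median of -0.33, which was -0.24 at 100 ng, -0.62 at 300 ng and -0.15 without lymphomas 8740 and 9820. Their score had a median of -1.58 and a range from -2.08 to 1.82 in the high class, against a median of -0.16 and a range from -2.21 to 4.48 in the low class. Of 9 adipocyte markers 0 passed and 8 were below 0, with a median of -0.23, and -0.14 without that pair. Of 10 dendritic cell markers 0 passed and 10 were below 0, with a median of -0.16, which was -0.37 at 100 ng and 0.13 at 300 ng. What part such cells have in the other differences was not tested beyond the 3 scores that follow. With the macrophage, the T-cell and NK-cell or the precursor B-cell score as a further term the calls stayed at 0 higher and 1 lower, which was Zbtb8a each time.

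Sex-linked transcripts had large fold changes that did not pass the test. Xist, the RNA of the inactive X chromosome, had 9.06 to 13.63 with a median of 9.98 in the high class, against 9.44 to 13.90 with a median of 12.38 in the low class, and 10 of 11 high arrays lay below the low median. Xist had a fold change of -1.54 ± 0.46 (SE, limma adjusted p = 0.402). The Y-linked genes Uty and Kdm5d had 0.87 ± 0.38 and 0.78 ± 0.36 (SE, limma adjusted p = 0.561 and 0.577). Uty was 5.13 ± 1.22 (SD, n = 11) in the high and 4.40 ± 0.85 (SD, n = 21) in the low class. Kdm5d was 5.76 ± 1.21 in the high and 5.16 ± 0.79 in the low class (SD). In the high class Uty was between 6.71 and 6.97 in lymphomas 8734, 8737 and 9188, and between 3.14 and 4.84 in the other 8. The low class is not broken down by array here. What part these transcripts have in the other differences was not tested.

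Chromosome 5 held more of the genes with a small p than any other chromosome. This was chosen after the values were seen, it is a description with no test, and genes of a chromosome are not independent of each other. Of the 40 genes with the smallest p, 12 lie on chromosome 5, or 30%, and of the 200 with the smallest p 74 do, or 37.0%, against 5.73% of the genes tested. Fam53a, Nat8l, Tmem165 and Tmem116 of the set above are among them. Of the list members named above, Dmtf1, Pole, Mxd4, Cad and Diablo, with positive fold changes, also lie on chromosome 5. So do Kit and Pdgfra, with negative ones. What part the chromosome has in the values of these genes was not tested. Over the 642 brighter chromosome 5 genes, those whose mean over all arrays is above that of the median gene, the median fold change was 0.26, against 0.10 over all 9968 such genes, and 81.8% were above 0, against 67.4%. Without lymphomas 8740 and 9820 the median was 0.16, against 0.01, with 81.5% above 0, against 53.1%. It was 0.29 at 100 ng and 0.21 at 300 ng. The next highest medians were those of chromosomes 3 and 14 at 0.17 each, and the lowest was that of chromosome 13 at -0.03. Without lymphomas 8740 and 9820 the medians of chromosomes 3, 14 and 13 were 0.08, 0.07 and -0.11.

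**Figure D4:**
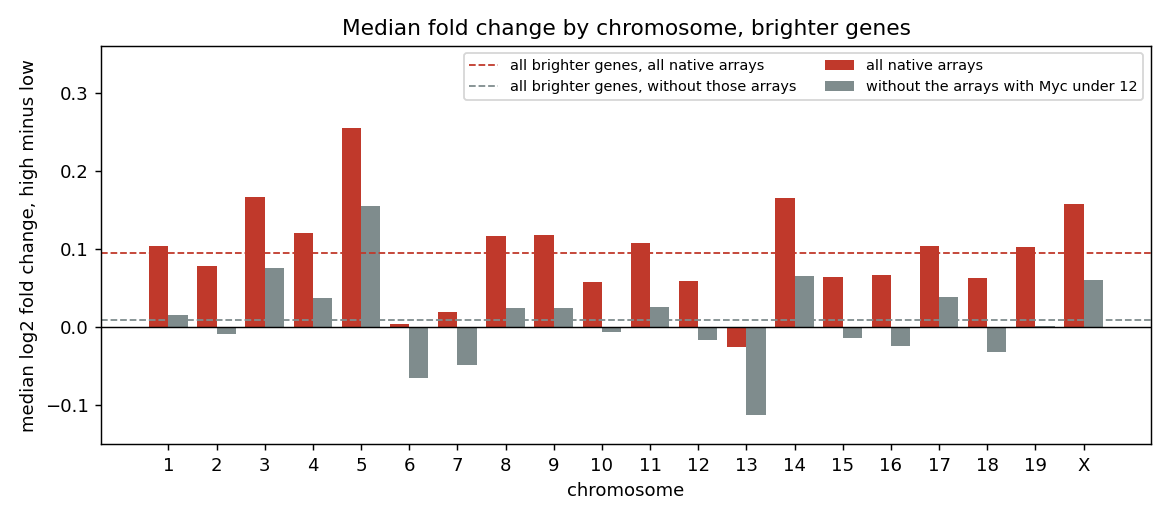
Median log2 fold change, high minus low Cdkn2a (vertical axis), over the brighter genes of each chromosome, for all 32 native arrays and without lymphomas 8740 and 9820, the arrays with Myc under 12. Dashed lines are the medians over all brighter genes. Chromosome 5 stands highest at 0.26 and 0.16, and chromosome 13 lowest at -0.03 and -0.11.

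The difference on chromosome 5 spread along its length. When its brighter genes were cut in RefSeq order into 8 blocks of 80 or 81, each block had a positive median, from 0.17 to 0.32, with 75.0% to 90.1% of its genes above 0. Without lymphomas 8740 and 9820 the block medians ran from 0.12 to 0.22. At an unadjusted p under 0.05, with all arrays, between 22 and 48 genes of a block were higher and between 0 and 4 lower. Over all genes, dim ones included, the shares were 5.37% and 2.96%. The blocks hold only brighter genes, for which such shares were not worked out, so the comparison is not like with like.

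The level of chromosome 5 differed between arrays and between array sets. The level is the median over the brighter chromosome 5 genes, each centred on its mean over the native arrays, minus the same median over all brighter genes of that array. In the high class it was -0.143 in lymphoma 1117, -0.108 in 1119, -0.088 in 1112, 0.052 in 8737, 0.068 in 8773, 0.072 in 8734, 0.10 in 9180, 0.120 in 1120, 0.253 in 8082, 0.255 in 9184 and 0.303 in 9188. In the low class it ran from -0.228 in lymphoma 8740 to 0.104 in lymphoma 8753, with a median of -0.027, and 8 of 21 arrays were above 0. Of the 11 high arrays 8 were above 0, and the 3 below it all have numbers starting with 1.

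The classes overlapped in the sets of number 1 and of 300 ng, and did not in those of numbers 8 and 9. For numbers starting with 1, the range was -0.143 to 0.120 in 4 high arrays, against -0.213 to -0.130 in 3 low arrays. For 9 it was 0.10 to 0.303 in 3 high arrays, against -0.019 to 0.046 in 2 low arrays, and for 8 it was 0.068 in 1 high array, against -0.027 in both low arrays. At 300 ng it was 0.052 to 0.253 in 3 high arrays, against -0.228 to 0.104 in 14 low arrays. In the number 1 set, lymphoma 1117, a high array, lay below lymphoma 1118, the low array nearest to the limit.

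**Figure D5:**
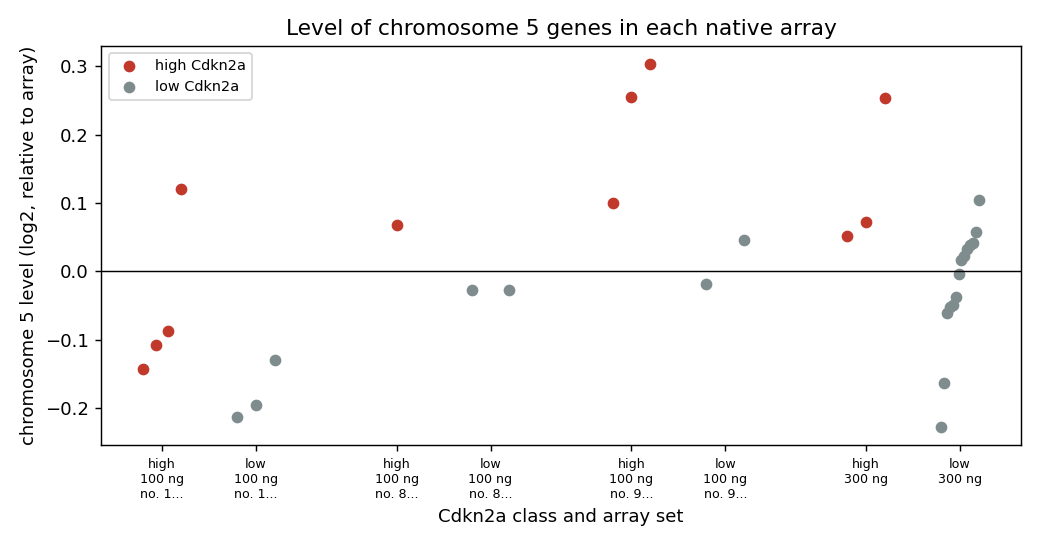
Level of chromosome 5 genes relative to the array (vertical axis, log2 scale) in each native array, with the high class left of the low class in each set of arrays (RNA input and, at 100 ng, first digit of the lymphoma number). Each point is 1 array. The high arrays of the number 9 set lie at 0.10 to 0.303, and 3 of 4 high arrays of the number 1 set lie below 0.

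The same limit splits the 31 CTX 4h arrays into 12 high and 19 low. There limma called 302 genes higher (1.51%) and 105 lower (0.527%) in the high class, a count that was 93 without lymphoma 1132 and 1218 without lymphoma 9186. Zbtb8a was lower there too, at -0.46 ± 0.12 (SE, limma adjusted p = 0.0377). Sapcd1 had 1.17 (limma adjusted p = 6.77e-04), Nat8l 1.13 (0.0159), Ppm1l 0.75 (0.00135), Spinkl 1.51 (0.0127), Manba 0.49 (0.0249) and Fam53a 0.36 (0.0379). Dglucy had -0.69 (0.151), Arhgap12 -0.27 (0.314), Tmem165 0.21 (0.264) and Tmem116 0.26 (0.145).

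The CTX 4h arrays cannot be taken as separate lymphomas. By the levels of 20 chromosomes, 17 of 32 native arrays had a CTX 4h array with a correlation of 0.9 or more, these were 17 different CTX 4h arrays, and all 17 pairs were of the same Cdkn2a class. The labels tie no native array to a CTX 4h array, so the values above stand side by side and are no repeat of the native result. Among native arrays, lymphomas 9174 and 9194, both low, had the only such correlation, 0.947, and leaving out either one kept the single call of Zbtb8a. A test of the difference between both contrasts called 0 genes (0%, limma interaction), with 315 higher and 163 lower at an unadjusted p under 0.05. For Zbtb8a the difference, native minus CTX 4h, was -0.30 ± 0.16 (SE, limma adjusted p = 1). This model takes all 63 arrays as independent, which the matching arrays above call into doubt, so its SE and p-values are uncertain.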

How the data were processed

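RNA of 63 lymphoma samples, 100 or 300 ng each, was hybridised to Affymetrix arrays, per the labels' protocols. The authors deposited 1 log2 value per probe set and array, made with RMA in Partek 6.5, per the submitters' processing notes. The sources used here do not say which arrays were normalized together. Arrays give no counts, so their number limits the precision.

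Of 35557 probe sets, 21789 had 1 gene symbol, 1621 several and 12147 none listed in the platform annotation, and 21698 matched a RefSeq gene ID (GRCm38.p6). Where a gene had several such probe sets, the one brightest on average was kept, which gave 19938 genes, or 19937 tested without Cdkn2a.

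The classes, the members and the 33 gene lists were chosen with earlier results of these data known. High and low native arrays were compared in R 4.3.3 by limma 3.58.1, using lmFit and eBayes with RNA input as a term (two-sided, Benjamini-Hochberg adjusted p under 0.05 over all genes). The difference to CTX 4h was an interaction term. Alternatives covered RNA input, number series, normalization, probe sets, dim genes, eBayes, array weights, fold size, limit, marker scores and each array left out. The model code was checked on simulated data with independent noise for each gene and array. These data had no correlated genes and no outlying or matching arrays, so they cannot show how the model handles those. Named genes are up to 12 called genes in each direction with the same sign at 100 and 300 ng, up to 4 per list by p, Mdm2, Myc, Cdkn2b, Mtap, E2f1, Bmi1, Igll1 and Ighm, the 5 measured neighbours of Cdkn2a on each side, and the 5 smallest p of the difference. Others are said to be named after their values were seen. Figures were drawn with matplotlib 3.10.9.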

Additional observations from a re-analysis of the deposited data

How the results depend on the processing

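The count of 1 called gene in native lymphomas changed with several settings. It was 23 without the RNA input term (18 higher, 5 lower), 21 with array weights (13 and 8), 15 with the limit at the next lower gap, which makes lymphoma 1118 high (14 and 1), and 9 with Cdkn2a as a continuous value (8 and 1). It was 7 without lymphomas 8740 and 9820, 4 with a common median, 2 with quantile normalization, and 0 in the 300 ng arrays alone or without numbers starting with 1. In the 100 ng arrays alone it was 1, but that gene was Sapcd1. It stayed at 1 with the number series as a term, the mean of probe sets, brighter genes only, trend and robust eBayes, a fold change of at least 1.5 and each of the 3 marker scores. Leaving out each native array in turn gave 1 to 11 calls. The 11 came without lymphoma 1118, 4 without 8082, 3 without 8740, 9180 or 1120, and 2 without 8742, 8778, 9193 or 9184. Zbtb8a was called in 47 of 50 settings, and the 3 without the call are given with its values above. Its fold change was negative in all 50.

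For CTX 4h the count was 980 without the RNA input term, 75 with the lower limit and 93 (without lymphoma 1132) to 1218 (without 9186) when single arrays were left out, against 407. The difference of the contrasts called 0 genes in each setting run. Fisher's exact p for RNA input was 0.0269 with the lower limit. The next widest gap over all arrays lies above every native array and gave no value, and it leaves 1 high CTX 4h array. The lower limit and the arrays without numbers starting with 1 were chosen after seeing the data.

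Of the genes named, 71 were followed through these settings, and 5 of them turned in sign under some setting. The named neighbours of Zbtb8a were not among the 71. Of those, Zbtb8b turned from -0.07 to 0.03 without lymphomas 8740 and 9820. The 5 are given here. Mtap had -0.026 with array weights and -0.017 without lymphomas 8740 and 9820. E2f1 had -0.083 at 300 ng, -0.12 with array weights and -0.0445 without those arrays. Kit had 0.069 at 300 ng. Igll1 had 0.50 without the RNA input term, 0.12 with the lower limit and 0.31 without numbers starting with 1, and -0.67 to 0.17 without single arrays. Ighm had 0.17 at 300 ng, 0.22 with the mean of probe sets, 0.0059 with the T-cell and NK-cell score, 0.40 without numbers starting with 1 and -0.59 to 0.037 without single arrays. For these the cause was not tested. The chromosome 5 median over that of all brighter genes was 0.07 to 0.18 under 18 settings. No paired analysis was possible because the replicate numbers of the labels tie no high to a low native array. Signal near background limits what dim genes such as the Y-linked ones can show.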

Other observations

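Genes outside the pathways above had large fold changes that did not pass the test, and are named after their values were seen. Fhit, a gene at a fragile site, had 8.73 ± 0.45 (SD, n = 11) in the high and 7.94 ± 0.39 (SD, n = 21) in the low class, a fold change of 0.71 ± 0.16 (SE, limma adjusted p = 0.119). Wfikkn2, which encodes a secreted protease inhibitor, had 1.18 ± 0.30 (SE, limma adjusted p = 0.225). Emb, which encodes the membrane protein embigin, had 8.66 in the high and 9.36 in the low class on average, a fold change of -0.78 ± 0.20 (SE, limma adjusted p = 0.221). On chromosome 5, the Mediator kinase gene Cdk8 had 0.59 ± 0.14 (SE, limma adjusted p = 0.17), the mitochondrial phosphatase gene Pgam5 0.50 ± 0.12 (SE, limma adjusted p = 0.163) and Atxn2 0.49 ± 0.12 (SE, limma adjusted p = 0.205).

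Heterochromatin genes gave 0 calls among 12 measured members. Of these 11 were above 0, against 45% of all genes tested and 67.4% of the brighter genes. At an unadjusted p under 0.05, 3 were higher, against 5.37% of all genes. Without lymphomas 8740 and 9820 that count was 1, against 4.08%. The 3 with all arrays were the histone H3 lysine methyltransferase genes Setdb1 at 0.37 ± 0.16, Ehmt2 at 0.29 ± 0.13 and Suv39h2 at 0.37 ± 0.17 (SE, limma adjusted p = 0.561, 0.567 and 0.587). Without lymphomas 8740 and 9820 their values were 0.20, 0.15 and 0.25, and the list median was 0.03, against 0.18 with all arrays. Of 14 NF-kB target genes 0 passed. Tnf, the inflammatory cytokine, had 6.95 in the high and 7.38 in the low class on average, a fold change of -0.65 ± 0.25 (SE, limma adjusted p = 0.509) that was -0.69 without the pair. Klf6, an immediate early transcription factor, had -0.44 ± 0.16 (SE, limma adjusted p = 0.505), with -0.71 at 100 ng and -0.04 at 300 ng. Of 20 interferon response genes 0 passed and 15 were below 0, with a median of -0.14, which was -0.34 at 100 ng and 0.13 at 300 ng. Of 11 oxidative stress genes 0 passed, with Gclm, a subunit of the enzyme that starts glutathione synthesis, at 0.39 ± 0.19 and Nqo1 at -0.28 ± 0.13 (SE, limma adjusted p = 0.59 for both). Without the pair Gclm had 0.21 and Nqo1 -0.15.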
